A study of Mus musculus with 468 samples.

Results

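The libraries described here are the top and the bottom quartile of all adipose libraries of the series by counts of Dbp, called the high-Dbp libraries (74 with and 43 without counts of the Y-linked gene Ddx3y) and the low-Dbp libraries (23 with and 94 without). Dbp was expressed as CPM, the estimated count of a gene per 1000000 counts of its library. The libraries between these groups, as many again as both together, are called the middle libraries, and they served as libraries that the comparison had not used. The series measured polyadenylated RNA from the fat of mice of the Diversity Outbred stock, whose genomes mix those of 8 inbred founder strains, with 1 library per mouse. By the study's methods the fat was the gonadal pad and mice of both sexes were included. The methods describe no targeted allele, and because the stock is outbred the mice differed in genotype. All mice in both groups, and in the middle libraries, received a high-fat, high-sugar diet, labelled as 45 percent fat. Beyond the diet, the methods describe fasts for blood sampling and an oral glucose tolerance test before harvest. The labels gave the mouse number and a library number, but not the sex, age, generation or hour of collection. By the study's methods all mice were harvested at the same age and came from several generations. The hour of the clock at which a mouse was sampled could therefore not be compared with its Dbp level, and the groups are named by Dbp and not by phase.

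The circadian clock of mammalian cells is a loop of transcription and translation. BMAL1, the product of Arntl, pairs with CLOCK or NPAS2 and binds E-boxes in the promoters of the Per, Cry, Nr1d and Dbp genes. The PER and CRY proteins then repress their own activators, and the REV-ERB proteins, products of Nr1d1 and Nr1d2, repress Arntl and its partners through retinoid-related orphan receptor elements (ROREs), where the ROR proteins activate. Dbp itself encodes a transcription factor of the PAR bZIP family, which binds D-boxes together with TEF and HLF, and NFIL3 represses through the same sites. In mouse tissues with a running clock, fat included, Dbp transcripts rise and fall once per day with a large amplitude, and Arntl transcripts are highest when those of Dbp are low.

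Promoters of the clock genes are shown first, because they carry the elements by which the loop is known to be wired. Of 37 genes, the 36 of the clock lists and Dbp, 30 had at least 1 window in the RefSeq promoter table, giving 41 windows of GRCm38.p6 from 250 bases before to 50 bases after an annotated transcript start. Each window was searched on both strands for the E-box CACGTG, the D-box as TTATGTAA or TTACGTAA, and the RORE as TAGGTCA or TGGGTCA, and no 2 of these motifs overlapped in a window printed here. Over all 32851 windows of the table, 7.15% held the E-box, 1.06% the D-box and 6.45% the RORE. The windows below are those of the genes whose transcripts differed most between the groups and that held a match, each printed 5′ to 3′ on the strand of its gene with the matches in capitals.
Per3, chr4:151044616-151044915, minus strand, 2 D-boxes: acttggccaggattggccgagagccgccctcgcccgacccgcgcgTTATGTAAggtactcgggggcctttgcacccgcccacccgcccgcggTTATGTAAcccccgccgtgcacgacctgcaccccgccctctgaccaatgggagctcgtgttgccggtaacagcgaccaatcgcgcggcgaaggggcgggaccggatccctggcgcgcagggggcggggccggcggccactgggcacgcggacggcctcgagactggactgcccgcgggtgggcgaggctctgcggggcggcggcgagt
Ciart, chr3:95882179-95882478, minus strand, 3 E-boxes: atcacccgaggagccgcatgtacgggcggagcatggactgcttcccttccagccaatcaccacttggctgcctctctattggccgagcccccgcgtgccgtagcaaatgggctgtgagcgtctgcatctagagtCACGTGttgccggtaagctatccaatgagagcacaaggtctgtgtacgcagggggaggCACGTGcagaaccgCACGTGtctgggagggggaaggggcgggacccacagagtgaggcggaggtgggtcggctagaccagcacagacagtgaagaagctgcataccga
Tef, chr15:81802423-81802722, plus strand, 1 E-box: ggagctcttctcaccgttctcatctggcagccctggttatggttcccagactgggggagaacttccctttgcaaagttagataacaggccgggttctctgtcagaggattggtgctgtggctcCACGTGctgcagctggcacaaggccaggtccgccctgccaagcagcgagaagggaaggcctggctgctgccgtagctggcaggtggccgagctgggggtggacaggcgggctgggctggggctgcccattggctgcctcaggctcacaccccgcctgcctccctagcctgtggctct
Bhlhe41, chr6:145865371-145865670, minus strand, 1 E-box: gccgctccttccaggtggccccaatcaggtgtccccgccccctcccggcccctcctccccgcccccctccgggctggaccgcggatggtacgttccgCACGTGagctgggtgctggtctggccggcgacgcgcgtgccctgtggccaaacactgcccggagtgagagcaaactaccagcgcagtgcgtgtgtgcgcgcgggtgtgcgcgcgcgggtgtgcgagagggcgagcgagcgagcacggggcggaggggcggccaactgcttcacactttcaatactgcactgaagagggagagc
Cry1, chr10:85185005-85185304, minus strand, 1 E-box: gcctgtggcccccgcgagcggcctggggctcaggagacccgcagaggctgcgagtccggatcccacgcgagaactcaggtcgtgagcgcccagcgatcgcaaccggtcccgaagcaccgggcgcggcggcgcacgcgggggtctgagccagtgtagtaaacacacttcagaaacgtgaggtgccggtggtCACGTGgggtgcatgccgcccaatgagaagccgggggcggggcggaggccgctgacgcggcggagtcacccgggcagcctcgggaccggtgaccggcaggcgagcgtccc
Arntl, chr7:113207261-113207560, plus strand, 1 RORE: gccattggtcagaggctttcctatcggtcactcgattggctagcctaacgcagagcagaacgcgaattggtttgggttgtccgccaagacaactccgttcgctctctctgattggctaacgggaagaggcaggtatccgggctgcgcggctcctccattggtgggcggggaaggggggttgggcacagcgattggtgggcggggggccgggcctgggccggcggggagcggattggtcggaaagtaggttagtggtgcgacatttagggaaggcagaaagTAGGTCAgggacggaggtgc
Nfil3, chr13:52980990-52981289, minus strand, 1 RORE read on the opposite strand: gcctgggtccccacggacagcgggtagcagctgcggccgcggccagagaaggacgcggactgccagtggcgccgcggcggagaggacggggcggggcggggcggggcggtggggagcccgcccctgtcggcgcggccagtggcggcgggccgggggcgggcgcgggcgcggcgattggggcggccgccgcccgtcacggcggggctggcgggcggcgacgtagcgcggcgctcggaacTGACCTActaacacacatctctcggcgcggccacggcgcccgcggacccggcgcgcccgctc

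E-boxes stood in windows of 7 of the 30 genes, a D-box in 1 and a RORE in 3. Counted by window, 8 of the 41 windows of the clock genes and Dbp held an E-box (19.5%, beside 7.15% of all windows), 1 a D-box (2.44% beside 1.06%) and 3 a RORE (7.32% beside 6.45%). A second window of Tef, at chr15:81811164-81811463, held an E-box at -138 and is not printed. The E-boxes of Ciart began at -116, -58 and -44 from the transcript start, and that of Cry1 at -60. The D-boxes of Per3 began at -205 and -158. The RORE of Arntl began 30 bases after the start and that of Nfil3 at -12. Dbp's own window and those of Nr1d1, Nr1d2 and Npas2 held none of these letters, which says only that the motif is not spelled this way within these bases.

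**Figure D1:**
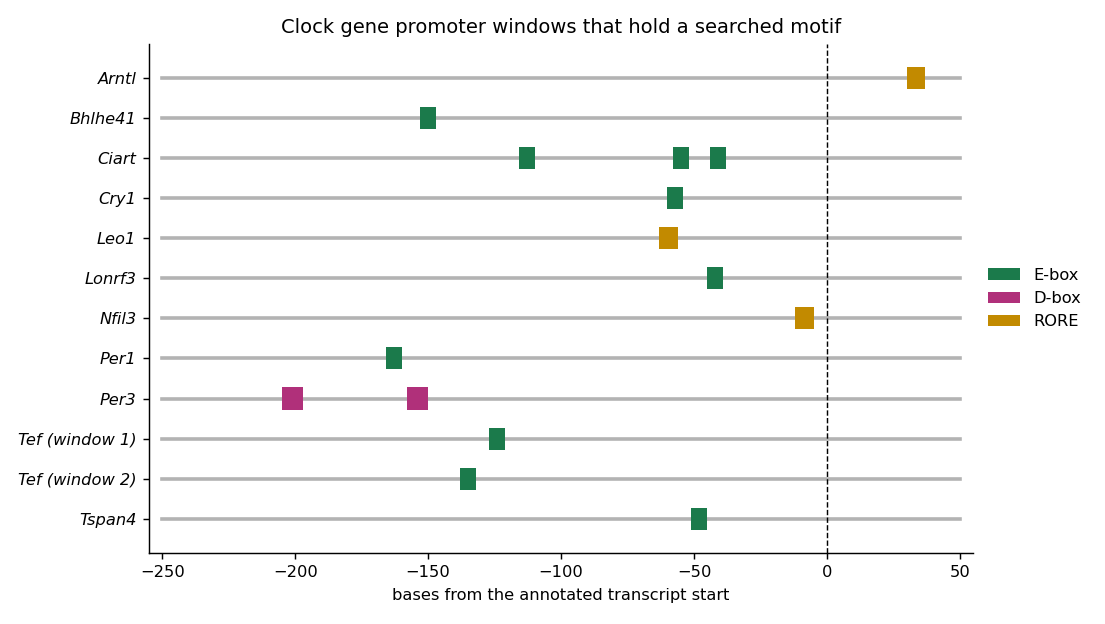
Clock gene promoter windows that held a searched motif. Grey lines are windows from 250 bases before to 50 bases after the annotated transcript start (dashed line), coloured boxes are E-boxes, D-boxes and ROREs at their position in bases; Ciart had 3 E-boxes and Per3 was the 1 gene with D-boxes.

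Dbp (chr7:45705088-45710203, plus strand, GRCm38) chose the libraries, so its levels are a description. In the high-Dbp libraries its median was 7.82 CPM (range 5.64 to 50.4), in the middle libraries 3.47 CPM (2.06 to 5.59), and in the low-Dbp libraries 1.52 CPM (0.472 to 2.06). The limits fell within a continuous range: the lowest high-Dbp library had 5.64 CPM and the next library outside 5.59 CPM, and the highest low-Dbp library had 2.057 CPM against 2.060 CPM in the next outside. Dbp overlaps Sphk2 in the annotation, and since the use of strand in counting is not given in the sources used here, reads of these genes may not be separable. A total of 35298813 to 137760410 counts per library, with medians of 82994039 in high-Dbp and 81344688 in low-Dbp libraries, left at least 44.8 counts of Dbp in every library.

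Dbp moved with the presence of Ddx3y, which had counts in 51.5% of all libraries. Among the high-Dbp libraries 74 had Ddx3y counts (63.2%), against 23 low-Dbp libraries (19.7%). The median of Dbp was 4.39 CPM in the libraries with Ddx3y counts and 2.39 CPM in those without. For this reason the fits of the outer groups and of the middle libraries held Ddx3y, as absent or present, and the mouse number as covariates. The comparison of the outer groups was also made within the libraries with and without Ddx3y, and the middle libraries were not split in this way. Pairs of clock genes were compared only within these sets, with no covariates. The mouse numbers were split into 5 blocks of 93 or 94 consecutive libraries, a stand-in for the unlabelled order of collection: block 1 held 17 high-Dbp and 31 low-Dbp libraries and block 5 held 29 and 19. 

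Some libraries stood apart from the rest for reasons other than Dbp. In 23 of all libraries, 8 of them high-Dbp and 8 low-Dbp, transcripts of ovary, liver or skeletal muscle, the transcript CT010467.1, Ceacam10, or a lack of both Ddx3y and Xist exceeded a set limit. Mice DO032 and DO069, both high-Dbp at 19.0 and 30.6 CPM of Dbp, carried 1562 and 2373 CPM of 8 ovary markers in sum. The adipose label was checked on its markers: all 10 adipocyte markers had counts and their sum was 9716 CPM or more in each outer library.

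Between the groups, 3232 of 18379 genes tested were higher in high-Dbp libraries (17.6%) and 2352 were lower (12.8%) at an adjusted p under 0.05 (edgeR's quasi-likelihood test, Benjamini-Hochberg adjustment over all genes). Without the 2 mice with ovary transcripts 2633 were higher and 2096 lower. Against this background, 16 of the 36 clock genes were higher, 7 were lower and 13 were not called. The median log2 fold of the 36 was 0.04, beside 0.01 over all genes tested. Most calls were small: 5.85% of the higher genes were more than 2-fold higher and 0.893% of the lower genes, 21 in number, more than 2-fold lower. Among them were Per3, Nr1d2 and Npas2. In the text, log2 folds are of high-Dbp over low-Dbp libraries with the covariates fitted, followed by their standard error, and adjusted p values are from edgeR unless another tool is named.

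The activators of the loop were lower in high-Dbp libraries. Npas2 ranged from 0.161 to 15.4 CPM in high-Dbp libraries (median 6.88) and from 6.72 to 47.7 CPM in low-Dbp libraries (median 16.6). Its log2 fold was -1.38 ± 0.0910 (adjusted p = 3.25e-32), the lowest adjusted p of all genes tested. The groups overlapped between 6.72 and 15.4 CPM, yet 83.8% of low-Dbp and 13.7% of high-Dbp libraries lay above the median of the series. Arntl, whose product pairs with CLOCK or NPAS2, ranged from 4.99 to 38.1 CPM (median 22.3) in high-Dbp and from 18.4 to 49.2 CPM (median 32.9) in low-Dbp libraries. The log2 fold of Arntl was -0.87 ± 0.0606 (adjusted p = 7.72e-30). Clock itself differed far less, with medians of 116.6 and 119.3 CPM and a log2 fold of -0.23 ± 0.0275 (adjusted p = 1.08e-11). Of the ROR receptors, which activate Arntl, Rora did not pass the test (log2 fold 0.00 ± 0.0456, adjusted p = 0.989).

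Of the 10 repressors listed, 8 were higher, Cry1 was lower and Per1 was not called. Per3 ranged from 12.9 to 100.4 CPM (median 32.3) in high-Dbp and from 6.67 to 29.6 CPM (median 16.5) in low-Dbp libraries, a log2 fold of 1.07 ± 0.0775 (adjusted p = 1.62e-28). Above the median of the series lay 88.03% of high-Dbp and 12.8% of low-Dbp libraries, and the ranges of the groups overlapped between 12.9 and 29.6 CPM. Per3 overlaps Camta1 in the annotation. Per2 was higher by 0.33 ± 0.0974 (adjusted p = 0.00508) with medians of 37.4 and 29.0 CPM, but its log2 fold was -0.20 within mouse block 5. Per1, which also answers to glucocorticoids, had medians of 101.7 and 93.4 CPM and did not pass the test (log2 fold 0.03 ± 0.0667, adjusted p = 0.741). Cry1 went the other way: it ranged from 5.37 to 23.99 CPM (median 11.2) in high-Dbp and from 7.67 to 33.4 CPM (median 15.7) in low-Dbp libraries. Its log2 fold was -0.60 ± 0.0713 (adjusted p = 2.31e-12). Cry2 was higher by 0.16 ± 0.0407 (adjusted p = 0.00104), a difference that was -0.01 in a fit of the libraries with Ddx3y counts alone.

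The REV-ERB receptors were higher. Nr1d2 ranged from 16.2 to 151.2 CPM (median 58.3) in high-Dbp and from 11.97 to 57.2 CPM (median 29.1) in low-Dbp libraries, a log2 fold of 1.04 ± 0.0707 (adjusted p = 2.89e-31). Nr1d1 spread more widely, from 9.54 to 194.6 CPM (median 87.3) against 12.2 to 120.9 CPM (median 45.8), and its log2 fold was 0.89 ± 0.110 (adjusted p = 2.72e-11). For Nr1d1 the groups overlapped broadly: 37.6% of low-Dbp libraries lay above the median of the series, and 70.9% of high-Dbp libraries did. Nr1d1 overlaps Thra on the opposite strand.

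Among the other E-box repressors, Bhlhe41 (DEC2) ranged from 3.86 to 96.9 CPM (median 11.3) in high-Dbp and from 2.15 to 11.7 CPM (median 5.01) in low-Dbp libraries. Its log2 fold was 0.96 ± 0.0831 (adjusted p = 4.02e-21), with 87.2% of high-Dbp and 9.40% of low-Dbp libraries above the median of the series. Bhlhe40 (DEC1) was higher by 0.44 ± 0.105 (adjusted p = 0.000532). Ciart, which represses the BMAL1 complex and whose promoter window held 3 E-boxes, was scarce at 0.333 to 6.54 CPM (median 1.27) against 0.464 to 2.30 CPM (median 0.835). The log2 fold of Ciart was 0.75 ± 0.0925 (adjusted p = 1.62e-11).

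Of the factors that share D-boxes with DBP, Tef rose with it. Tef ranged from 51.2 to 183.1 CPM (median 92.5) in high-Dbp and from 30.3 to 90.4 CPM (median 53.9) in low-Dbp libraries, a log2 fold of 0.81 ± 0.0578 (adjusted p = 2.64e-29). Hlf was higher by 0.36 ± 0.0979 (adjusted p = 0.00248) with medians of 14.7 and 12.6 CPM. The D-box repressor Nfil3 fell: it ranged from 4.22 to 35.8 CPM (median 13.2) in high-Dbp and from 8.31 to 99.6 CPM (median 22.1) in low-Dbp libraries. Its log2 fold was -0.64 ± 0.0987 (adjusted p = 7.9e-08). The highest low-Dbp library for Nfil3 and for Npas2 was mouse DO349, and without it the log2 folds were -0.62 and -1.36.

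Kinases and ubiquitin ligases that set the stability of PER and CRY moved by at most 0.10 on the log2 scale. Of 8 tested, Gsk3b (0.10 ± 0.0273, adjusted p = 0.00351) and Csnk1d (0.04 ± 0.0150, adjusted p = 0.0176) were higher on the log2 scale and 6 were not called. Of 10 genes listed as clock outputs, 4 were higher: Tspan4 by 0.24, Wee1, a kinase that holds back mitosis, by 0.32, the deubiquitinase Usp2 by 0.34 and Marveld1 by 0.14. Leo1 was lower, at -0.20 ± 0.0318 (adjusted p = 2.1e-07). Nampt, the rate-limiting enzyme of NAD salvage and a known E-box target, did not pass the test (-0.10 ± 0.0651, adjusted p = 0.227), nor did the glucocorticoid target Tsc22d3 (-0.11 ± 0.0874, adjusted p = 0.329).

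**Figure D2:**
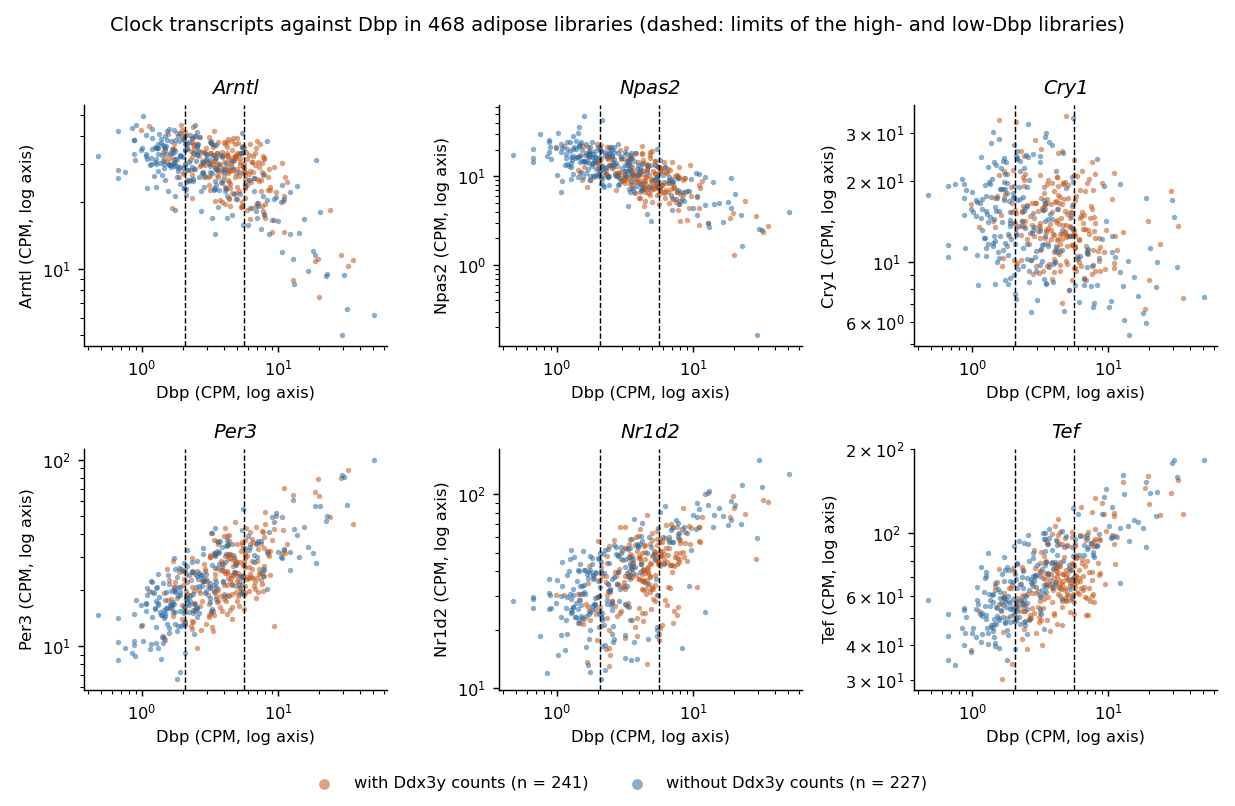
CPM of 6 clock transcripts against CPM of Dbp, both on log axes, in all libraries of the series, 1 point per mouse, coloured by the presence of Ddx3y counts; dashed lines mark the limits of the high-Dbp and low-Dbp libraries. Arntl, Npas2 and Cry1 lay lower and Per3, Nr1d2 and Tef higher toward the right, with overlap between the outer groups for all 6.

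The middle libraries were used to fit the same relation in mice that the comparison above had not used. There the change per doubling of Dbp was fitted over libraries whose Dbp spanned only 2.06 to 5.59 CPM. Over all genes tested, 1603 rose with Dbp (8.72%) and 3.16% fell. Of the 36 clock genes, 7 rose and 3 fell, and all 10 did so in the direction of the outer groups. Npas2 changed by -0.54 ± 0.0736 on the log2 scale per doubling (adjusted p = 2.58e-08), Arntl by -0.27 ± 0.0418 (adjusted p = 9.55e-07) and Clock by -0.08 ± 0.0271 (adjusted p = 0.0239). Among the rising genes Usp2 had the steepest slope, 0.52 ± 0.104 (adjusted p = 7.79e-05), followed by Per3 at 0.44 ± 0.0715 (adjusted p = 2.01e-06) and Bhlhe40 at 0.42 ± 0.0924 (adjusted p = 0.000502). Bhlhe41 (0.35 ± 0.0771), Ciart (0.34 ± 0.0792), Nr1d2 (0.34 ± 0.0884) and Tef (0.31 ± 0.0528) were the other four, with adjusted p values of 0.000434, 0.00101, 0.00402 and 6.24e-06. Nr1d1 (0.23 ± 0.144, adjusted p = 0.331), Cry1 (-0.15 ± 0.0787, adjusted p = 0.228) and Nfil3 (-0.16 ± 0.0741, adjusted p = 0.151), all called between the outer groups, did not pass the test in the middle. Over all genes, 52.8% of the 1603 rising genes were also higher in the outer comparison and 2 were lower, and 63.9% of the falling genes were also lower and 4 higher. These shared genes were 26.2% of all genes higher and 15.8% of all genes lower between the outer groups.

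**Figure D3:**
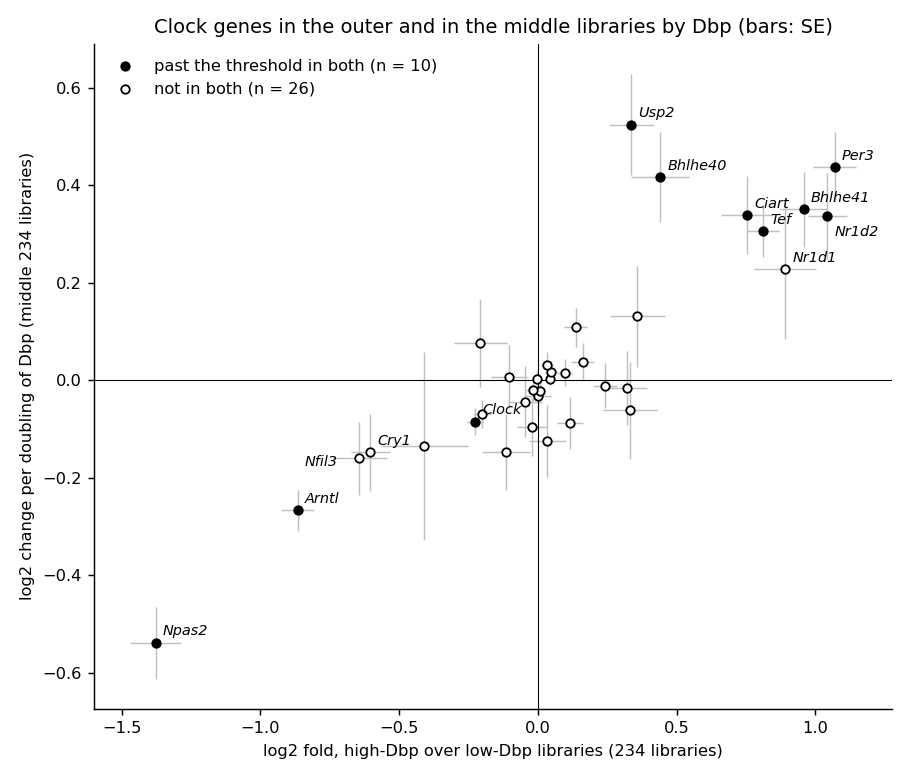
Log2 fold of high-Dbp over low-Dbp libraries (horizontal) against the log2 change per doubling of Dbp in the middle libraries (vertical) for 36 clock genes; bars are standard errors. Filled points, 10 genes, passed the test in both, and Npas2 at -1.38 and -0.54 lies at the lower left and Per3 at 1.07 and 0.44 at the upper right.

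Pairs of clock genes that leave Dbp out varied together across mice. The 10 pairs were compared on log2(CPM + 1) within the libraries with (51.5% of all) and without (48.5%) Ddx3y counts, 20 relations in all, with permutation tests of 100000 resamples, two-sided. Tef and Per3 were the closest, with Pearson's r of 0.864 with and 0.888 without Ddx3y (Spearman's rho 0.837 and 0.870, permutation p = 1e-05 for each, the smallest these resamples can give, adjusted 1.18e-05). Nr1d1 and Nr1d2 followed with r of 0.785 and 0.857 (rho 0.753 and 0.867), and Arntl and Npas2 with 0.783 and 0.811 (rho 0.728 and 0.727), at the same p. Other pairs were negatively related: r of Arntl, an activator, with Per3, a repressor, was -0.624 and -0.726 (rho -0.466 and -0.648) and of the repressors Cry1 and Nr1d1 -0.674 and -0.797 (rho -0.640 and -0.798), again at the smallest permutation p. Arntl with Nr1d1 gave -0.327 and -0.531 (rho -0.370 and -0.584) and Arntl with Ciart -0.309 and -0.563 (rho -0.230 and -0.360). Nr1d1 and Per3, both E-box targets, were only loosely related at 0.283 and 0.329 (rho 0.317 and 0.372). Per1 followed the glucocorticoid target Fkbp5 at 0.429 and 0.591 (rho 0.418 and 0.613) and Per3 at 0.379 and 0.207 (rho 0.361 and 0.213, adjusted permutation p = 0.00138 for the last). Without the 2 libraries farthest from the median of the first gene, the 20 r values kept their sign and lay between 0.171 and 0.878 in size. The pairs share the library totals by which they are scaled.

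These relations also held within most of the 5 blocks of mouse numbers. The r of Tef with Per3 lay between 0.836 and 0.886 with Ddx3y and between 0.876 and 0.906 without. That of Arntl with Per3 lay between -0.694 and -0.582 with and between -0.784 and -0.552 without. Of the 20 relations, 19, 17, 15, 18 and 16 passed the test in blocks 1 to 5. The sign turned for Nr1d1 with Per3 in block 3 with Ddx3y (r = -0.0855) and for Per1 with Per3 in block 5 without (r = -0.0932).

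The comparison gave different folds with and without Ddx3y for part of the genes. In the fit of libraries with Ddx3y counts alone, 3436 of 18379 genes were higher and 3113 lower. In the fit of libraries without Ddx3y counts, 2.93% of genes were higher and 1.21% lower. Fewer calls without Ddx3y were thus seen over all genes. A smaller count without Ddx3y in a list below does not by itself show a difference between the sets. For 2608 of 18379 genes (14.2%) the difference between the outer groups itself differed between the libraries with and without Ddx3y counts (interaction term, edgeR), 13 of the 36 clock genes among them. The gap of Dbp itself was 2.36 on the log2 scale with and 3.16 without Ddx3y, and the part that this smaller gap had in the differences below was not tested. Per3 was higher by 0.70 ± 0.134 with and by 1.30 ± 0.0944 without Ddx3y (adjusted p of the difference = 0.00529). Tef was higher by 0.52 and 0.99 (adjusted p = 0.00347), Nr1d2 by 0.77 and 1.21 (adjusted p = 0.0311), and Nr1d1 by 0.47 and 1.14 (adjusted p = 0.0337). Arntl was lower in both, at -0.65 with and -0.99 without (adjusted p = 0.0374). The largest relative gap among these was that of Nfil3, which was -0.13 ± 0.145 with Ddx3y (adjusted p = 0.534) and -0.93 ± 0.117 without (adjusted p = 6.49e-11; of the difference, 0.00140). Npas2, at -1.15 and -1.51, and Bhlhe41, at 1.02 and 0.92, did not pass the test of the difference (adjusted p = 0.182 and 0.744).

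**Figure D4:**
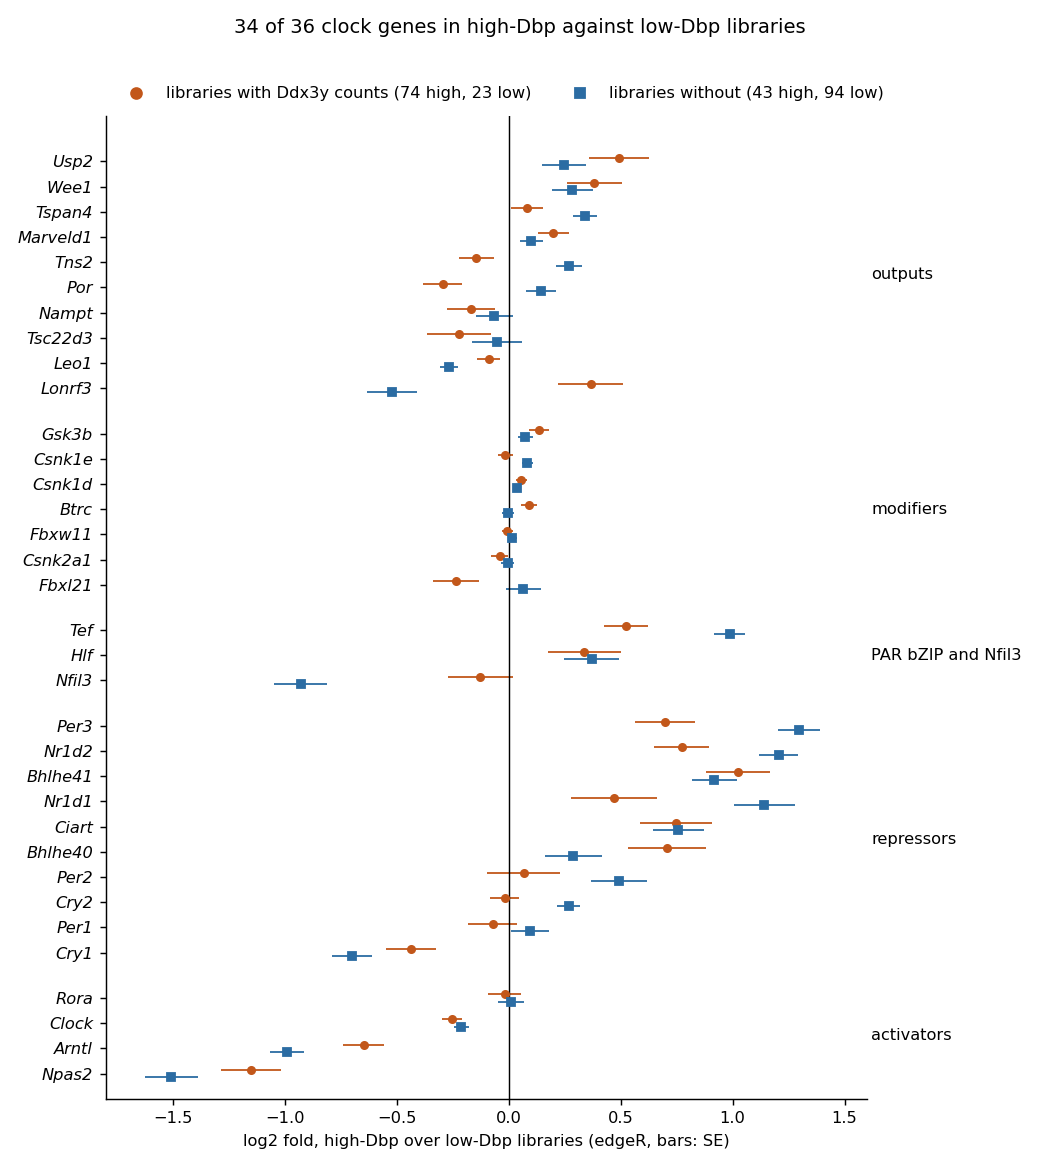
Log2 fold of high-Dbp over low-Dbp libraries for 34 of the 36 clock genes in 5 groups by role, in libraries with Ddx3y counts (circles, 74 high and 23 low) and without (squares, 43 high and 94 low); bars are standard errors. Npas2 and Arntl lie farthest below 0, and Per3, Nr1d2, Bhlhe41 and Tef lie above 0 in both.

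Within single blocks of mouse numbers the outer groups were small, and fewer genes were called than over all blocks together. In block 2, with 24 high-Dbp and 20 low-Dbp libraries, 11 genes were called (0.0599% of all genes tested) and 8 of these were clock genes. The other 3, Lpar4 and Dapk1 among them, were all lower. In blocks 3 and 5, where 0.0979% and 0.0816% of all genes tested were called, 7 of 18 and 4 of 15 called genes were clock genes. In block 4, where 1.53% of all genes tested were called, 10 were clock genes. In block 1, which held both mice with ovary transcripts, 3739 genes were called, 10 of them clock genes, and without these mice 1406 were, 7 of them clock genes. Arntl, Npas2 and Nr1d2 were called in all 5 blocks, and Per3, Tef, Bhlhe41 and Dapk1 in 4. Their log2 folds over the blocks ran from -1.02 to -0.56 for Arntl, from -1.71 to -0.84 for Npas2 and from 0.81 to 1.42 for Nr1d2.

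Outside the clock lists, the rule for named genes took the genes with the lowest p and a mean of at least 10 CPM, 12 in each direction. Of these, 4 of 12 higher and 4 of 12 lower were clock genes. The lower ones were led by Dapk1, a death-associated protein kinase, at 49.7 to 208.1 CPM (median 138.4) in high-Dbp and 84.1 to 362.9 CPM (median 169.7) in low-Dbp libraries. The log2 fold of Dapk1 was -0.35 ± 0.0352 (adjusted p = 1.72e-16), and its slope in the middle libraries was -0.18 ± 0.0296 (adjusted p = 4.58e-06). Sh3pxd2a, a scaffold of invadopodia, was -0.52 ± 0.0549 (adjusted p = 8.52e-15). Elp4, a subunit of Elongator, was -0.32, Sema6d -0.32, Zfp740 -0.25, Ahcyl2 -0.36 and Rnf125, a ubiquitin ligase, -0.62 on the log2 scale. These 7 were below 0 in all 5 blocks of mouse numbers. The blocks divide the same libraries by which these genes were chosen, so this sign is a description only. In the middle libraries, which did not choose them, 6 of the 7, without Rnf125 (adjusted p = 0.0504), also fell.

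The higher ones rested in part on few mice. Acsbg1, an acyl-CoA synthetase, had a log2 fold of 2.84 ± 0.294 (adjusted p = 1.62e-15) but medians of 2.11 and 0.862 CPM, with 661.9 and 624.8 CPM in DO069 and DO032, the mice with ovary transcripts, and 78.1 CPM in the next. Without these 2 mice its log2 fold was 0.62. Soat1, which esterifies cholesterol, fell from 0.98 to 0.45 and AU020206 from 0.68 to 0.20 without them. Usp6nl, a Rab GTPase-activating protein (0.22 ± 0.0276, adjusted p = 1.06e-10), Foxp4, a forkhead factor (0.29 ± 0.0389, adjusted p = 6.06e-10) and Ttyh3 (0.43 ± 0.0585, adjusted p = 1.35e-09) were 0.20, 0.26 and 0.40 without them, and all 3 also rose in the middle libraries. Spsb1, an adaptor of ubiquitin ligases, was 0.47 with and 0.34 without these mice.

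Cell cycle genes were higher as a list: 18 of 18 passed the test, with a median log2 fold of 0.53. Cyclin B1 (Ccnb1) had medians of 2.07 and 0.835 CPM (0.86 ± 0.158, adjusted p = 7.57e-06), the replication helicase subunit Mcm6 16.3 and 10.3 CPM (0.43 ± 0.0825, adjusted p = 1.63e-05) and the ribonucleotide reductase subunit Rrm2 4.13 and 2.19 CPM (0.55 ± 0.109, adjusted p = 2.6e-05). Without the 2 mice with ovary transcripts the log2 fold of Ccnb1 was 0.50, and 13 of 18 were called (median 0.32). The count was 18 within mouse block 1, 3 within block 1 without those mice (edgeR, 10 at an unadjusted p under 0.05) and 0 within each of the other four blocks (edgeR, 2, 0, 6 and 0 at an unadjusted p under 0.05), and it was 3 among libraries without Ddx3y. The interaction of group and Ddx3y was called for 0 of the 18, and in the middle libraries 2 of the 18 rose. Macrophage markers moved with them: 8 of 15 were higher and none was lower, with a median log2 fold of 0.24, and their summed level ran from 301.1 to 6504 CPM (median 1597) in high-Dbp and from 370.4 to 2853 CPM (median 1070) in low-Dbp libraries. No macrophage marker was at 0 in all outer libraries. With the macrophage markers in the fit, 5 of the 18 cell cycle genes were still called. Of the macrophage markers, 10 were higher with Ddx3y and 2 without, and the interaction was called for 2 of the 15. In bulk tissue, fewer cells of a type and less RNA per cell cannot be told apart.

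Mitochondrial respiratory chain genes went the other way, with 20 of 26 lower and none higher and a median log2 fold of -0.19. Atp5b, a subunit of ATP synthase, had medians of 1206 and 1915 CPM and a log2 fold of -0.25 ± 0.0671 (adjusted p = 0.00208). The medians lay farther apart than the fitted fold, which holds Ddx3y as a covariate: within the libraries without Ddx3y the medians of Atp5b were 1880.3 and 2061 CPM, and with Ddx3y 1111 and 1291 CPM. These calls depended on the setting. Without the 2 mice with ovary transcripts 10 of 26 were called (median -0.16). When the outer groups were chosen by Dbp over a total scaled by the trimmed mean of M-values, none of the 26 was called by edgeR (2 at an unadjusted p under 0.05, median -0.07), with macrophage markers in the fit 2 were, and among libraries without Ddx3y none was (4 at an unadjusted p under 0.05), against 23 among those with. The interaction of group and Ddx3y was called for 0 of the 26. In the middle libraries none passed edgeR's test, 2 were below an unadjusted p of 0.05, and limma called 0.

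Genes of lipid release and of the fasted state were lower in part: 8 of 14 were lower and 1, Cpt1a, was higher, with a median log2 fold of -0.14. The count of lower genes was 8 among libraries with Ddx3y, 1 among those without, 7 in mouse block 1, 1 in block 4 and 0 in blocks 2, 3 and 5 (edgeR, with 0, 1 and 3 at an unadjusted p under 0.05). For the 46 highest against the 46 lowest libraries it was 0 (3 at an unadjusted p under 0.05). Over all genes, 3113 of 18379 were lower among libraries with Ddx3y and 1.21% among those without. Pnpla2, the first lipase of triglyceride breakdown, had medians of 1963 and 2466 CPM (-0.34 ± 0.0605, adjusted p = 3.02e-06) and fell in the middle libraries as well (-0.27 ± 0.0697, adjusted p = 0.00307). Adrb3, the adrenergic receptor of adipocytes, was -0.45 ± 0.0893 (adjusted p = 3.35e-05), and Txnip -0.25 ± 0.0518 (adjusted p = 8.52e-05). These falls stood out with Ddx3y: Adrb3 was -0.94 ± 0.141 with and -0.14 ± 0.114 without (adjusted p of the difference = 0.000973). Adipocyte markers moved with them, with 5 of 10 lower and none higher, a median log2 fold of -0.14 and summed levels of 9716 to 34889 CPM (median 25456) in high-Dbp and 15725 to 35607 CPM (median 26524) in low-Dbp libraries. Among libraries with Ddx3y 8 of these markers were lower, and among those without none was (edgeR, 3 at an unadjusted p under 0.05). In the middle libraries 7 of the 10 adipocyte markers and 6 of the 14 lipolysis genes fell and 0 rose, beside 3.16% of all genes falling. The interaction of group and Ddx3y was called for 7 of the 10 and 7 of the 14, beside 14.2% of all genes. With adipocyte markers in the fit, 8 of the 14 lipolysis genes were lower and 1 higher (median -0.11). Some genes stand on both lists, Pnpla2 among them.

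Of 15 fatty acid synthesis genes 4 were lower and none higher (median -0.15): Scd1, the stearoyl-CoA desaturase, by -0.29 ± 0.0657 (adjusted p = 0.000313), and the acetyl-CoA carboxylases Acacb by -0.50 ± 0.130 (adjusted p = 0.00136) and Acaca by -0.39 ± 0.121 (adjusted p = 0.00876), with Elovl5. With macrophage markers in the fit 2 were lower and Acaca was -0.20 (adjusted p = 0.167). With the groups chosen by Dbp over the scaled total 1 was lower and 1 higher (median 0.05), and Acaca was -0.15 (adjusted p = 0.382) and Acacb -0.26 (adjusted p = 0.135). Among libraries without Ddx3y none was lower (edgeR, 2 at an unadjusted p under 0.05), against 5 with, and the interaction was called for 2 of the 15. Of 19 cholesterol synthesis and uptake genes 4 were higher and none lower (median 0.06), beside 17.6% of all genes called higher. The count was 10 with Ddx3y and 0 without (edgeR, 1 at an unadjusted p under 0.05), 9 with the groups chosen by Dbp over the scaled total (median 0.22), 2 in block 1 and 0 in each of blocks 2 to 5 (0, 1, 1 and 3 at an unadjusted p under 0.05). Among them Msmo1, a methyl sterol oxidase of the synthesis pathway, was 0.22 ± 0.0694 (adjusted p = 0.00906). Without the 2 mice with ovary transcripts Msmo1 was 0.13 (adjusted p = 0.134). The interaction was called for 3 of the 19 genes. Of 8 adipokines 2 were higher, Lep among them, and 4 lower (median -0.16), and without Ddx3y 1 was higher and none lower (edgeR, 1 at an unadjusted p under 0.05). Adiponectin (Adipoq) had medians of 1811 and 2195 CPM (-0.30 ± 0.0625, adjusted p = 5.36e-05), with -0.70 among libraries with and -0.07 among those without Ddx3y (adjusted p of the difference = 0.000158). None of 10 thermogenic genes passed edgeR's test (median 0.00), with 0 at an unadjusted p under 0.05 and 0 called by DESeq2 and 1 by limma.

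Of 16 glucocorticoid targets, 5 were lower and none higher (median -0.08): the cell cycle inhibitor Cdkn1a (-0.44 ± 0.0770, adjusted p = 2.44e-06), Sult1a1 (-0.30 ± 0.0673, adjusted p = 0.000230), Pdk4, which spares glucose in fasting (-0.54 ± 0.128, adjusted p = 0.000493), Zbtb16 and Angptl4. The log2 fold of Pdk4 was -0.30 (adjusted p = 0.0686) with the groups chosen by Dbp over the scaled total, and -1.29 to -0.17 over the 5 mouse blocks, called in 1 of them. The list had 6 lower genes in block 1 and 0 in each of blocks 2 to 5 (edgeR, 0, 1, 2 and 2 at an unadjusted p under 0.05). Of 13 genes of the heat shock and cold response 1 was higher and 6 were lower (median -0.17). The count of lower genes was 8 with Ddx3y and 0 without (edgeR, 4 at an unadjusted p under 0.05), 8 in block 1, 5 in block 4 and 0 in blocks 2, 3 and 5 (0, 1 and 3 at an unadjusted p under 0.05), and 0 for the 46 highest against the 46 lowest libraries (2 at an unadjusted p under 0.05). The higher one was Rbm3, a cold-induced RNA-binding protein, with medians of 109.9 and 72.4 CPM (0.22 ± 0.0443, adjusted p = 2.67e-05), which rose in the middle libraries too (0.15 ± 0.0479, adjusted p = 0.0252). The lower ones were led by the mitochondrial chaperone Hspd1 (-0.25 ± 0.0535, adjusted p = 8.84e-05) and by Hspa4l (-0.31 ± 0.0671, adjusted p = 0.000157). The interaction of group and Ddx3y was called for 0 of the 13. Of 21 immediate early genes 3 were higher and 3 lower (median -0.02), and without Ddx3y none was higher (edgeR, 1 at an unadjusted p under 0.05) and 1 lower. Nr4a3 (-0.93 ± 0.238, adjusted p = 0.00118) rested on 1 low-Dbp library, DO349, at 642.9 CPM beside 90.7 CPM in the next of either group. Without it the log2 fold of Nr4a3 was -0.32 ± 0.161 (adjusted p = 0.120).

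Markers of other cells passed the test in varying number, beside 17.6% of all genes called higher and 12.8% lower. None of the 8 T cell, 7 B cell, 7 liver and 5 blood genes passed edgeR's test, with medians of 0.08, 0.07, 0.03 and 0.08. At an unadjusted p under 0.05 the counts were 0, 0, 0 and 0, and DESeq2 called 0, 0, 0 and 0 and limma 0, 0, 0 and 0. The interaction of group and Ddx3y was called for 0, 0, 1 and 3 of these genes, beside 14.2% of all genes. The fold over both Ddx3y sets therefore does not describe each set for all of these genes. Of 10 progenitor genes 2 were higher and 1 lower, of 8 endothelial genes 1 was lower, of 6 smooth muscle genes 1 was higher, of 8 mesothelial genes 2 were higher and 2 lower, and of 7 skeletal muscle genes tested 1 was lower. The interaction was called for 3, 3, 4, 5 and 1 of these. In the middle libraries 0, 0, 3, 3 and 5 of them rose, beside 8.72% of all genes, and 1, 0, 0, 0 and 0 fell. Of the 2 libraries over 1000 CPM of skeletal muscle markers, 0 were high-Dbp and 0 low-Dbp. The 6 ovary genes tested were all higher (median 1.83), chosen after the 2 mice with ovary transcripts were seen; without those mice 1 of 6 were called (median 0.30). No marker of these lists was at 0 in all outer libraries.

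**Figure D5:**
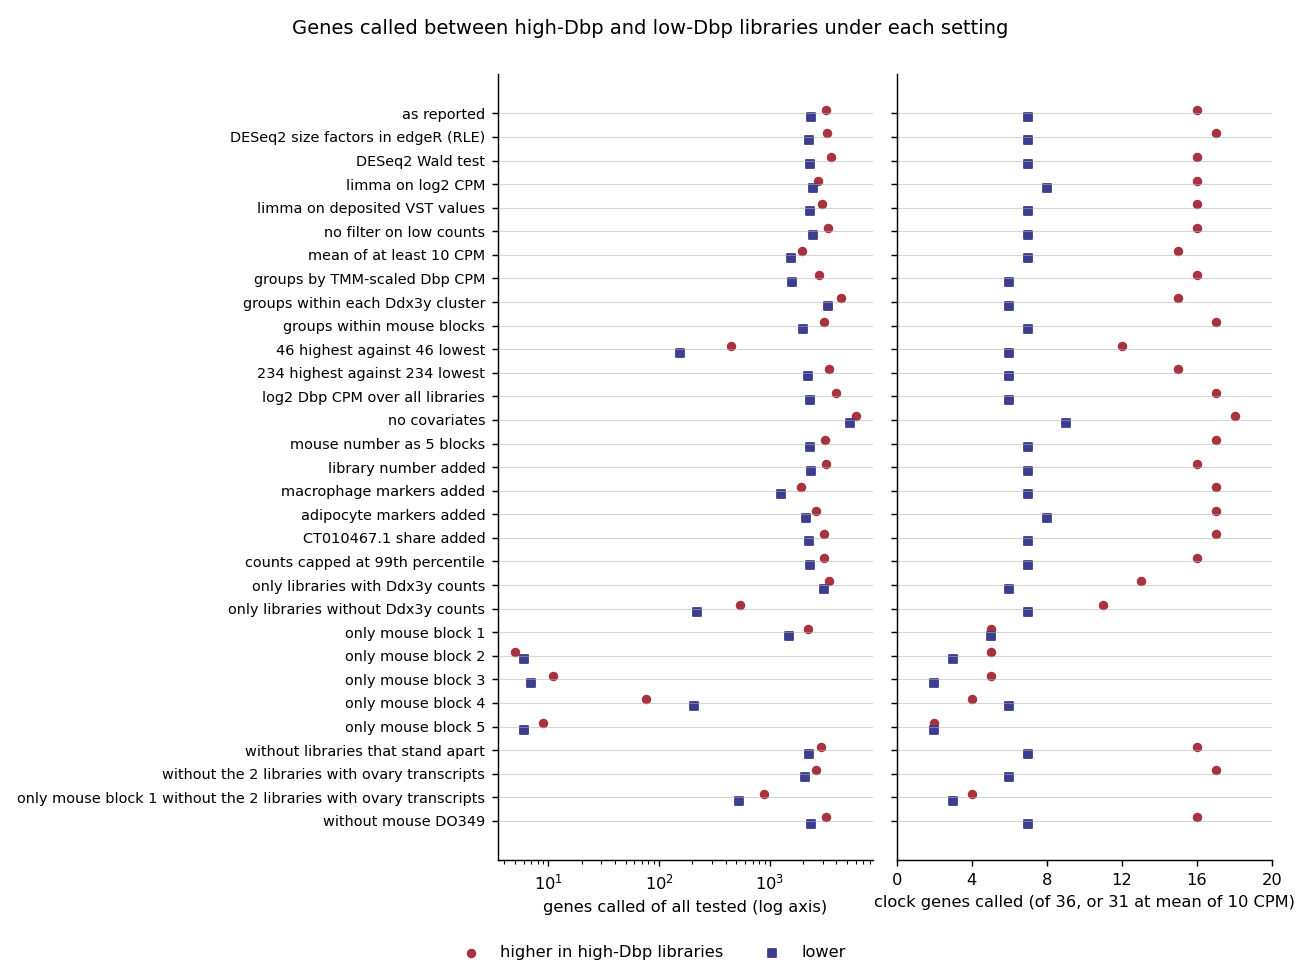
Number of genes called higher (circles) and lower (squares) in high-Dbp libraries under each setting of the analysis, over all genes tested on a log axis (left) and among the clock genes (right). Genes called higher ran from 5 in mouse block 2 to 6001 without covariates, and clock genes called higher from 2 in block 5 to 18 without covariates.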

How the data were processed

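Polyadenylated RNA of 468 adipose samples, 1 per mouse, was sequenced. The authors aligned both ends of each read pair as single reads to a transcriptome joining the 8 founder strains and estimated abundances with EMASE in GBRS, and the table deposited by the authors holds these estimated counts per gene, also called expected counts, not scaled to depth; 66.8% of its values were whole within 1e-06. The authors also deposited log2 values after the variance stabilizing transformation of DESeq2, used here only in alternatives. The build was GRCm38. The sources used here give neither versions of these tools nor the use of strand. The 117 libraries with the highest and the 117 with the lowest Dbp CPM were compared, 234 lay between, and 241 of all 468 had Ddx3y counts and 227 did not. Each column matched 1 mouse, 0 columns were unused, and no columns of the authors' comparisons were used.

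Counts were rounded, and genes with at least 10 counts in 50% of libraries were kept (18380 of 23180; 18379 tested without Dbp). edgeR 4.0.16 in R 4.3.3 fitted quasi-likelihood models with trimmed mean of M-values scaling, Ddx3y presence and mouse number as covariates, and Benjamini-Hochberg adjustment at 0.05. The same fit was made on log2 Dbp CPM in the middle libraries and with an interaction of group and Ddx3y. Since labels give no sex or generation, these covariates stand in for the study's own. limma 3.58.1 and DESeq2 1.42.0 were alternatives, and the fits were tested on simulated data. Gene pairs were compared on log2(CPM + 1) with SciPy 1.17.1 under Python 3.11.15 (numpy 2.4.6), and figures drawn with matplotlib 3.10.9. Libraries come from separate mice, and intervals reflect the spread between mice.

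Named genes were Dbp, the clock lists, the 12 genes with the lowest p in each direction among those called with a mean of at least 10 CPM, the same sign with and without Ddx3y and a limma call, 3 members of each pathway list, and 5 interaction genes. The members and lists were chosen with earlier results of these data known. Ovary markers, the libraries that stand apart, DO349 and the genes named in single mouse blocks were chosen after values were seen. Libraries stood apart at over 100 CPM of ovary markers, over 1000 CPM of liver or skeletal muscle markers or of Ceacam10, over 10% of counts in CT010467.1, or without Ddx3y counts and under 100 CPM of Xist. Pancreas and epididymis markers had 2 of 7 and 0 of 6 genes in the table and were not used further. A few named genes and their values are not reported here, and counts over lists include them.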

Additional observations from a re-analysis of the deposited data

Results flagged for a closer look

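For 28 of the named genes the log2 fold of high-Dbp over low-Dbp libraries differed between libraries with and without Ddx3y counts. The test was the interaction term of edgeR, at an adjusted p under 0.05. Of the 28, 5 had been named for their low p in this same test: Ceacam10, Ptgs2, Emb, Akr1b7 and Fam120c. Their passing was fixed by that choice and is a description only. Over all genes tested 14.2% passed. The named genes were chosen, so the 28 are a list and not a rate to set beside that share. Values below are the fold with Ddx3y minus the fold without, on the log2 scale.

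Of the clock genes, the difference was -0.60 for Per3, -0.67 for Nr1d1, -0.43 for Nr1d2, -0.46 for Tef and -0.29 for Cry2, all with the larger fold in libraries without Ddx3y. It was 0.34 for Arntl and 0.80 for Nfil3, again with the larger change without Ddx3y. Among modifiers and outputs it was -0.26 for Tspan4, -0.44 for Por, -0.41 for Tns2, 0.18 for Leo1 and 0.89 for Lonrf3. Lonrf3 and Por pointed in opposite directions in the 2 sets of libraries: Lonrf3 was 0.37 with and -0.52 without, and Por was -0.30 and 0.14.

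For several genes that were lower in high-Dbp libraries, most of them of adipocytes, the larger change was in libraries with Ddx3y. The difference was -0.80 for Adrb3, -0.63 for Adipoq, -0.47 for Txnip, -0.37 for Pnpla2, -0.42 for Scd1, -0.24 for Sema6d and -0.31 for Ahcyl2, and among genes with a higher fold with Ddx3y it was 0.31 for Foxp4, 0.55 for Ttyh3 and 1.38 for Otop1. The X-linked gene Fam120c had a difference of -0.48.

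The largest values rested on few mice. Acsbg1 had a difference of -2.31, with both mice with ovary transcripts on the side without Ddx3y. Without the libraries that stand apart it was 0.91 ± 0.44 (adjusted p = 0.161). Ceacam10 had a difference of 11.50, with 15945 CPM in DO283 alone and medians of 0.245 and 0.0402 CPM. Without the libraries that stand apart it was 5.54 ± 1.11 (adjusted p = 0.000275). The differences of Arntl (0.33, adjusted p = 0.0569), Tspan4 (-0.26, adjusted p = 0.0509) and Leo1 (0.17, adjusted p = 0.0671) also missed the threshold without these libraries. Ptgs2 (5.25), Akr1b7 (7.81) and Emb (2.03) had their highest levels among outer libraries in high-Dbp libraries with Ddx3y, and for Ptgs2 and Akr1b7 these were the same 3 mice, DO181, DO109 and DO401. Akr1b7 stood at 10593 CPM in DO181 against a median of 0.342 CPM in high-Dbp libraries.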

How the results depend on the processing

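Over the 26 alternatives planned for the comparison of high-Dbp with low-Dbp libraries, Arntl, Npas2 and Nr1d2 kept their direction and their call in each. Of the genes tested, 17.6% were higher and 12.8% lower. These shares became 20.5% and 16.3% at a mean of at least 10 CPM (1950 and 1554 genes of fewer tested, against 3232 and 2352), 2.42% and 0.838% for the 46 highest against the 46 lowest libraries, 32.7% and 28.6% without covariates, 10.4% and 6.86% with macrophage markers in the fit, and 2.93% and 1.21% without Ddx3y. In mouse blocks 2 to 5, with fewer libraries, they were 0.0272% and 0.0326%, 0.0599% and 0.0381%, 0.419% and 1.12%, and 0.0490% and 0.0326%. In block 1, 8.19% were lower, and in block 1 without the mice with ovary transcripts 4.79% were higher and 2.86% lower. In the middle libraries 5.79% rose by limma, against 8.72%. Settings that leave out DO349, the mice with ovary transcripts or the libraries that stand apart were chosen after seeing the data. For genes called in this comparison and pairs of clock genes, signs turned, none past the threshold, for Cry2 with Ddx3y (-0.0148) and in block 1 (-0.0316), Ptgs2 without Ddx3y (-0.0172), Nr4a3 in blocks 2 and 3 (0.11 and 0.66), Hspa4l (0.14) and Msmo1 (-0.0463) in block 2, Egr3 in block 4 (-0.25), Per2 in block 5 (-0.20), and r of Nr1d1 with Per3 in block 3 (-0.0855) and of Per1 with Per3 in block 5 (-0.0932). Of genes not called, Lonrf3 (-0.21) was 0.32 without covariates (adjusted p = 0.00177) and 0.40 with Ddx3y (adjusted p = 0.0256), and Otop1 (0.32) was -0.82 without covariates (adjusted p = 0.000768), all past the threshold. For these and for the changed shares without covariates, with macrophage markers and without Ddx3y the cause was not tested.

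No paired analysis was possible because all samples form 1 labelled group and share no replicate numbers across groups. The comparison rests on Dbp measured once per mouse at an unlabelled hour, on Ddx3y and mouse number as stand-ins for sex and generation, and on bulk tissue.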
